A study of Homo sapiens with 5 samples.

Results

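The mRNA signals of 9 genes at the junction of the p53 pathway and the G1 phase of the cell cycle were examined in HEK293 cells carrying PRL-1 or an empty vector. The choice was by name, with earlier results of these data known. The genes were MDM2, RCHY1, CDKN1A, CDKN1B, CCNE1, CCNE2, CCND2, CCND3 and CDK2, with every probe set that the array's annotation assigns to them. They are 9 of 19775 genes that the annotation names by a single symbol, and 29 of 54675 probe sets. HEK293 is a line of human embryonic kidney cells transformed with adenovirus early genes, whose products bind RB and p53 proteins. Both groups were stable lines carrying pcDNA4 constructs, one with PRL-1 and the other with no insert. RNA came from independent cultures. The authors dropped 1 PRL-1 array after qRT-PCR found no increase of PRL-1 in that culture, which left 3 vector arrays and 2 PRL-1 arrays. All cultures of a group descend from the same stable line, so that PRL-1 and whatever else sets the lines apart cannot be told apart, and the p-values here reflect variation among cultures alone.

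PRL-1, encoded by PTP4A1, is a prenylated protein tyrosine phosphatase, and PRL phosphatases have been reported to lower p53 through MDM2 and RCHY1 and to lower CDKN1A. MDM2 and RCHY1 (also called PIRH2) are ubiquitin ligases that send p53 to the proteasome, and both are themselves p53 target genes. CDKN1A encodes p21, the CDK inhibitor that p53 induces, and CDKN1B encodes the related inhibitor p27. D-type cyclins with CDK4 or CDK6 begin the phosphorylation of RB, cyclin E with CDK2 completes it, and the release of E2F factors then allows entry into S phase. Much of this control acts on protein stability and on phosphorylation, which an mRNA array does not measure. The transcript of p53 itself is not analysed here.

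Promoter sequence is shown for MDM2, because it holds the p53 element of the pathway, and for the 3 members with a promoter entry that had a single start site. Of the 9 genes, 6 matched the RefSeq promoter table (GRCh38.p14), with 14 windows between them. The 250 bases before the start site are printed 5′ to 3′ on the plus strand, which is the coding strand of all 4 genes. They lie at chr12:68808774-68809023 for MDM2, chr6:36678464-36678713 for CDKN1A, chr12:12717118-12717367 for CDKN1B and chr19:29811741-29811990 for CCNE1. Capitals mark a p53 element in MDM2, GGGCGG on either strand in CDKN1A and CCNE1, and GGGCGG and CCAAT in CDKN1B.
MDM2 promoter: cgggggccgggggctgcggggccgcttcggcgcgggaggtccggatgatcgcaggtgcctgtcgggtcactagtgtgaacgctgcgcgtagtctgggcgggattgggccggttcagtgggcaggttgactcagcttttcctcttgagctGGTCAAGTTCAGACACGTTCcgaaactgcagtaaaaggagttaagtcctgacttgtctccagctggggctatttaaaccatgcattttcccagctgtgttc
CDKN1A promoter: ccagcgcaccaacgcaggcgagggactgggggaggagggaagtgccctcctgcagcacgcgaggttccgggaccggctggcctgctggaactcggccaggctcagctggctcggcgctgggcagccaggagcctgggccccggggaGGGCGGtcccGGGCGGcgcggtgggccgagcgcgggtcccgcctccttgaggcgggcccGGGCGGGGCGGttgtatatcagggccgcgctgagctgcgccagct
CDKN1B promoter: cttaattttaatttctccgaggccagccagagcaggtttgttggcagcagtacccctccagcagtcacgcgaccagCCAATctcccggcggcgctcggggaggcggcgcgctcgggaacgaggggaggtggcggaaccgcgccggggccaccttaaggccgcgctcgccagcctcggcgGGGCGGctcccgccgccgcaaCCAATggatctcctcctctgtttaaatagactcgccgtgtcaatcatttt
CCNE1 promoter: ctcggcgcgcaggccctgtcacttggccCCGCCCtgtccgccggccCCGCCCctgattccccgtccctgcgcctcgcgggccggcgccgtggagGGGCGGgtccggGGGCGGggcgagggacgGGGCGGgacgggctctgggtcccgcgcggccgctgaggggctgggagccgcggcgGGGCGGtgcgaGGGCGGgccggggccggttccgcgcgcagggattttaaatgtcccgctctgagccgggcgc

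The p53 element was searched as a pair of adjacent half-sites of the p53 consensus with at most 1 mismatch in each, and 0.339% of 35116 promoter windows held one. It stood 101 to 82 bases before the start in the MDM2 window printed here, and it was also present in the overlapping window of the neighbouring start. Neither of the 2 windows at the upstream MDM2 starts held it, but both held an E2F match (TTTCCCGC, TTTGGCGC, TTTCGCGC or TTTGCCGC on either strand), found in 2.79% of all windows. GGGCGG, the core of sites for Sp factors, was present 4 times in CDKN1A, where 2 copies overlap by a base, once in CDKN1B and 7 times in CCNE1, and 42.6% of all windows held it. CCAAT was present at 2 places in CDKN1B, and 32% of all windows held it. No p53 element met this rule in the windows of CDKN1A or RCHY1, which says only that these letters are not within the bases searched. A match is a description of the sequence and does not show that a factor binds.

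On each array MAS5 signals were scaled by the authors to a mean of 500 after trimming 2% at each end. Tests covered the 33818 probe sets with a signal of 100 or more on at least 2 arrays, and a limma adjusted p of 0.05 or less is named a call. The arrays labelled PRL-1 had 20 called probe sets with higher and 45 with lower signal. Vector replicate 3 stood apart, with correlations of 0.938 to 0.947 to the other arrays against 0.954 to 0.964 among those, and results are given with and without it where it matters. No PTP4A1 probe set was called or passed an unadjusted p of 0.05. The 4 that were tested gave log2 fold changes of 0.06 to 0.15 (limma adjusted p from 0.737 to 0.892), with a highest upper bound of 0.44, and whether they lie within the construct's transcript is not known here, so directions below refer to arrays labelled PRL-1. The paper states that earlier work on this line found PRL-1 mRNA and protein raised at least 2-fold over the vector cells.

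Of the 29 member probe sets, 24 were tested and none was called by limma. The share of all tested probe sets that was called was 0.192%. At an unadjusted p of 0.05, 4 member probe sets passed, all higher on the arrays labelled PRL-1, namely both sets for CCNE2 and the sets for CCNE1 and CDKN1B. Of all tested probe sets 9.72% passed that level in either direction and 4.39% passed it as higher. The methods' t-test called none of the 24, and it called 0 of all 33818 tested probe sets. The 1 member set that passed at its unadjusted level was none of these 4 but a CCND3 set (201700_at). For that level the share over all tested probe sets is not given here. The groups did not overlap in 9 member probe sets, all higher on the arrays labelled PRL-1, whereas 12.8% of all tested probe sets were without overlap in that direction and 16.1% in the other. Both CCNE2 sets are among these 9, and all 9 were read on the same 5 arrays, so they are not separate observations. The members were also chosen with earlier results of these data known, so these counts are descriptions and not a test.

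**Figure D1:**
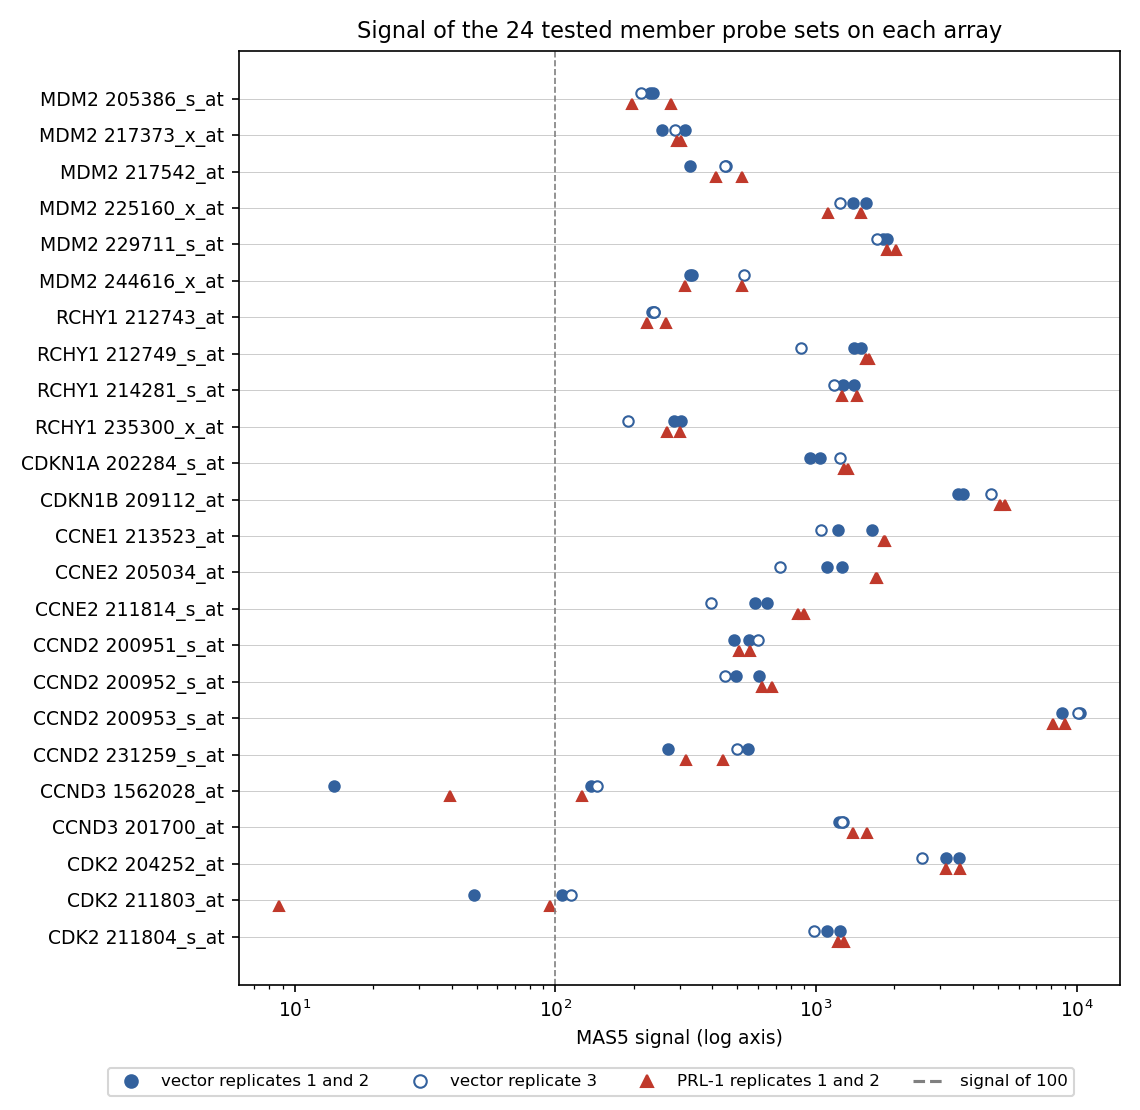
MAS5 signal (log axis) of each of the 24 tested member probe sets on the 5 arrays, with circles for vector cultures, open for vector replicate 3, and triangles for cultures labelled PRL-1. In CCNE2, CCNE1 and CDKN1B both triangles lie to the right of all circles, while for MDM2 the symbols mostly intermix, and a probe set for CCND3 and a probe set for CDK2 scatter around and below the dashed line at 100.

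MDM2 and RCHY1, the ligases that act on p53, showed no called difference between the groups. The brightest MDM2 probe set (229711_s_at) gave signals of 1816, 1870 and 1718 on the vector arrays and 1876 and 2034 on the PRL-1 arrays. Both PRL-1 values lay above the vector values, the lower of them by a few units. The log2 fold change of 0.12 had a 95% interval of -0.14 to 0.37 (limma adjusted p = 0.772). The next brightest set (225160_x_at) gave 1555, 1383 and 1241 on the vector arrays and 1488 and 1116 on the PRL-1 arrays, so that the groups overlapped and the lowest value was on a PRL-1 array. Its log2 fold change was -0.11, with an interval of -0.47 to 0.26. The remaining 4 tested MDM2 sets gave log2 fold changes of 0.04 to 0.20 with overlapping groups, and the 6 tested sets thus lie on both sides of 0. A further 4 MDM2 probe sets stayed at or under 110.3 and did not reach 100 on 2 arrays, so they were not tested. Sets ending in _x_at or _s_at can also bind transcripts other than the one they are named for.

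RCHY1 gave signals of 1485, 1401 and 874.3 on the vector arrays and 1603 and 1554 on the PRL-1 arrays by its brightest probe set (212749_s_at). Vector replicate 3 was far below every other array, and the other vector values were close to the PRL-1 values. The log2 fold change of 0.37 had an interval of -0.12 to 0.86 (limma adjusted p = 0.623). Without vector replicate 3 the log2 fold change was 0.13, with an interval of -0.08 to 0.34. A set for the same gene of similar brightness (214281_s_at) gave 1404, 1270 and 1177 against 1256 and 1441, with overlapping groups and a log2 fold change of 0.07. The other 2 sets, which were dimmer, gave 0.04 and 0.16.

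The CDK inhibitors CDKN1A and CDKN1B have 1 probe set each, and both signals were higher on the arrays labelled PRL-1, although neither was called. CDKN1A (202284_s_at) gave 1041, 950.1 and 1236 on the vector arrays and 1277 and 1324 on the PRL-1 arrays. The groups did not overlap, but vector replicate 3 came close to the lower PRL-1 value. The means were 1076 ± 146 (SD, n = 3) and 1300 ± 33.1 (SD, n = 2), a 1.22-fold difference with a 95% interval of 0.971 to 1.52 (limma adjusted p = 0.567). A lower CDKN1A signal on the PRL-1 arrays, beyond a factor of 0.971, lies outside that interval. The log2 fold change was between 0.20 and 0.39 when each array was left out in turn, and 0.39 without vector replicate 3, with an interval of 0.16 to 0.62 (limma adjusted p = 0.126).

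CDKN1B (209112_at) showed signals of 3503, 3662 and 4714 on the vector arrays and 5300 and 5103 on the PRL-1 arrays. Here too vector replicate 3 was the vector array nearest to the PRL-1 arrays, with the remaining pair well below. The means were 3959 ± 658 (SD, n = 3) and 5202 ± 139 (SD, n = 2), a 1.33-fold difference with an interval of 1.06 to 1.66 (limma adjusted p = 0.421). Without vector replicate 3 the log2 fold change went from 0.41 to 0.54, with an interval of 0.36 to 0.72, and CDKN1B was called (limma adjusted p = 0.0217). It was the only member probe set called without that array, when 0.926% of all tested probe sets were.

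The E-type cyclins, which activate CDK2 at the end of G1, gave the widest differences among the brightest probe sets of the members with all 5 arrays. Without vector replicate 3 this order did not hold, since CDKN1B at 0.54 was then above CCNE2 at 0.53, and CDKN1A at 0.39 above CCNE1 at 0.37. CCNE2 (205034_at) had signals of 1102, 1255 and 725.8 on the vector arrays and 1697 and 1708 on the PRL-1 arrays. The PRL-1 values lay within a few units of each other and above all vector values, of which replicate 3 was the lowest. The fold difference was 1.70, with a 95% interval of 1.21 to 2.38 (limma unadjusted p = 0.0062, adjusted p = 0.301). The other CCNE2 set (211814_s_at) gave 583.2, 647.5 and 396.2 against 856.1 and 897.1, with the 5 arrays in the same order. Its fold difference was 1.65 (limma adjusted p = 0.317). Without vector replicate 3 the log2 fold changes of the sets went from 0.77 to 0.53 and from 0.72 to 0.51, with limma adjusted p of 0.0544 and 0.0901.

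CCNE1 (213523_at) gave 1648, 1211 and 1045 on the vector arrays and 1831 and 1833 on the PRL-1 arrays. Vector replicate 1 was nearest to the PRL-1 arrays and replicate 3 farthest. The means were 1301 ± 312 (SD, n = 3) and 1832 ± 1.06 (SD, n = 2), a 1.43-fold difference with a 95% interval of 1.07 to 1.92 (limma adjusted p = 0.421). The log2 fold change was 0.52 on all arrays, 0.37 without vector replicate 3 and 0.70 without vector replicate 1. The other CCNE1 probe set, 242105_at, stayed between 25.1 and 40.3 and was not tested.

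CDK2, the kinase partner of both E-type cyclins, gave 3541, 3147 and 2552 on the vector arrays and 3558 and 3166 on the PRL-1 arrays by 204252_at. The groups overlapped, and the log2 fold change was 0.14, with an interval of -0.21 to 0.48 (limma adjusted p = 0.807). The set 211804_s_at gave 1235, 1098 and 984.8 against 1211 and 1285, again with overlap, and a log2 fold change of 0.18. The third CDK2 set, 211803_at, reached 100 on only 2 arrays, and its log2 fold change of -1.55, with an interval of -4.10 to 1.00, rests on signals near background.

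**Figure D2:**
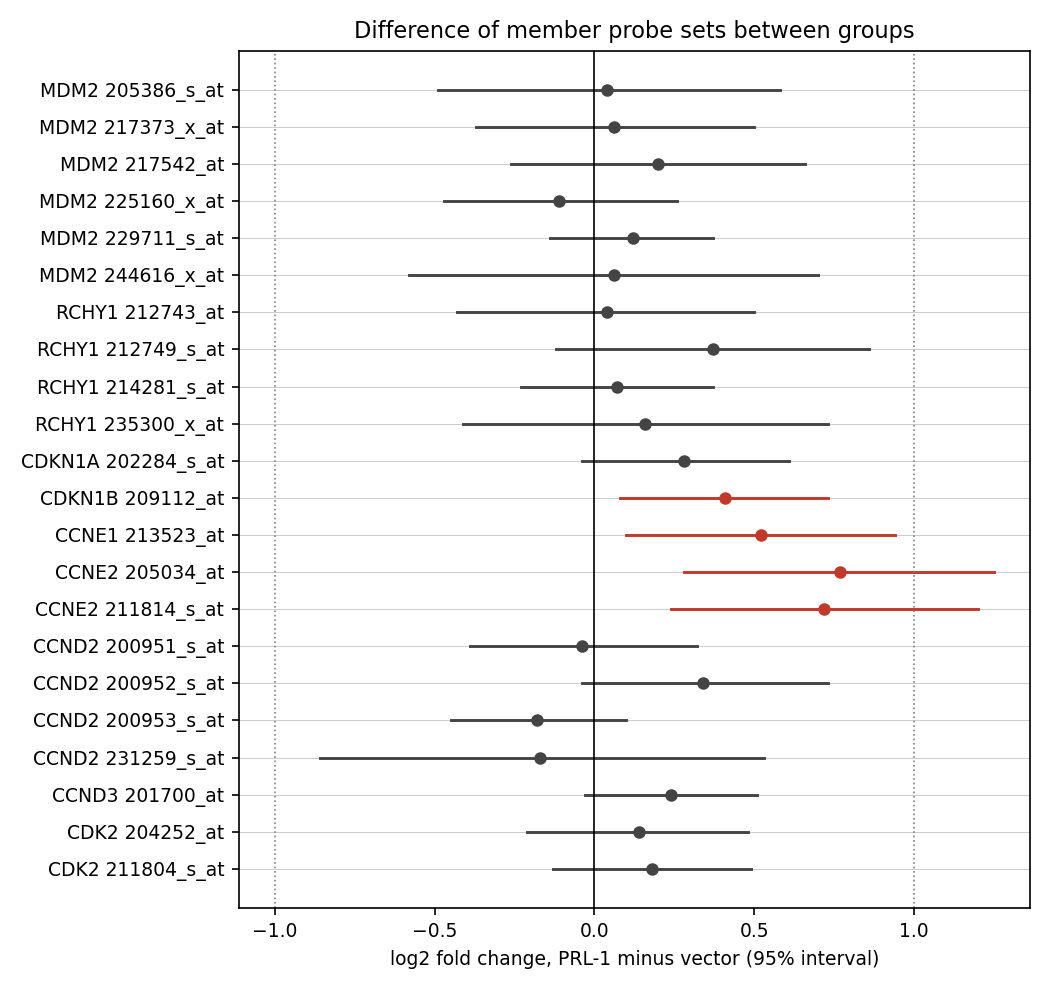
Log2 fold change (PRL-1 minus vector) of 22 tested member probe sets as points with 95% limma intervals as bars, dotted lines at changes of 1 in either direction, and the 4 sets at an unadjusted p of 0.05 or below in red. The 2 sets near background, for CCND3 and CDK2, are left out, and of the intervals shown only the red ones, for CDKN1B, CCNE1 and CCNE2, lie wholly on one side of 0.

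The D-type cyclins, which carry growth factor signals into the cycle, did not all lie on one side of 0. The brightest CCND2 probe set (200953_s_at) gave 8762, 10281 and 10088 on the vector arrays and 9043 and 8117 on the PRL-1 arrays, with overlap. Its log2 fold change of -0.18, with an interval of -0.45 to 0.10 (limma adjusted p = 0.679), was the only one below 0 among the brightest sets of the 9 genes. A dimmer CCND2 set, 200952_s_at, gave 491.7, 606.1 and 448.5 against 676.5 and 621.5, without overlap and in the opposite direction, with a log2 fold change of 0.34 and an interval of -0.04 to 0.73. The probe sets for CCND2 therefore disagree in sign, and the other 2 gave -0.04 and -0.17.

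CCND3 (201700_at) gave 1222, 1272 and 1264 on the vector arrays and 1573 and 1386 on the PRL-1 arrays. The vector arrays were close together, vector replicate 3 among them, and both PRL-1 values were above them. The fold difference was 1.18 (limma adjusted p = 0.566), and its log2 value of 0.24 was the same without vector replicate 3. The other CCND3 set, 1562028_at, ran from 14.2 to 145 within the vector arrays alone and gave a log2 fold change of 0.11 with an interval of -2.39 to 2.61.

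**Figure D3:**
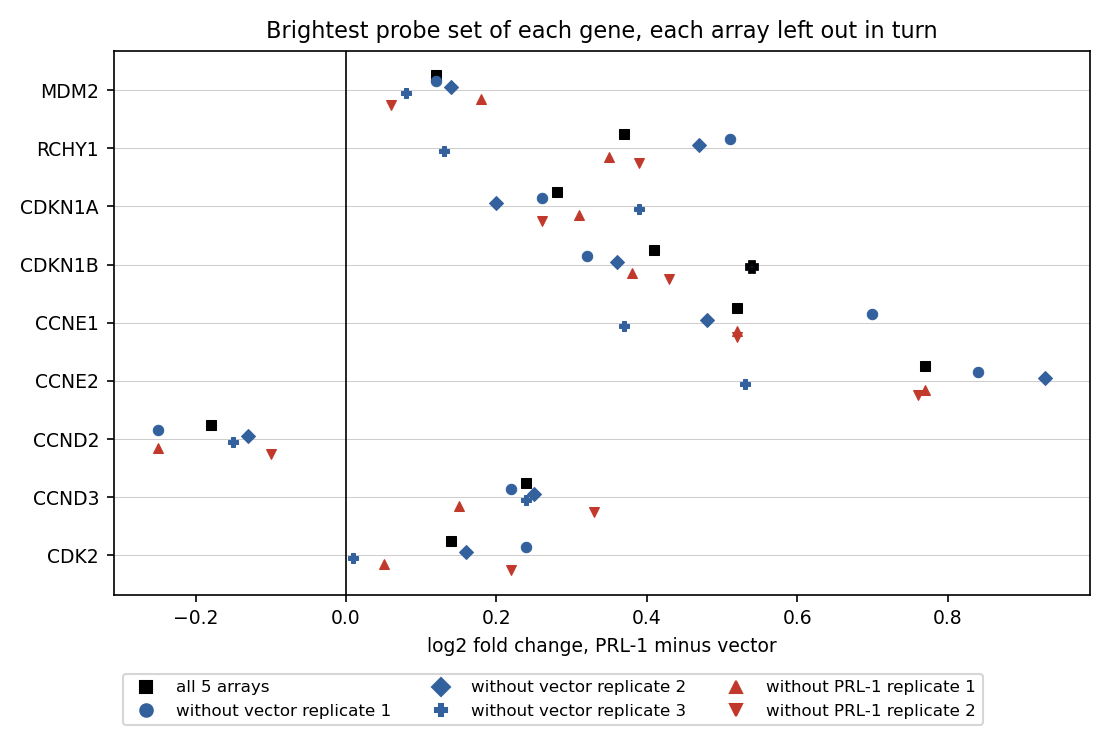
Log2 fold change (PRL-1 minus vector) of the brightest probe set of each of the 9 genes on all 5 arrays (black squares) and with each array left out in turn (other symbols). A black outline marks the single call, CDKN1B without vector replicate 3, and every gene keeps its side of 0, with CDK2 coming closest to 0 without that array.

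By their brightest probe sets, 8 of the 9 genes had a log2 fold change above 0 and the median was 0.28, beside -0.03 over all 14546 genes. Over the 24 tested member sets the median was 0.13, beside -0.04 over all tested probe sets. Because the members were chosen with earlier results of these data known, these medians do not test a shift from all genes. Among the vector arrays, replicate 3 was lowest in 12 of the 24 sets and highest in 6, replicate 1 lowest in 11 and highest in 6, and replicate 2 lowest in 1 and highest in 12, so replicate 3 did not stand out from replicate 1 by that count. Its presence widened the differences of the brightest sets for the cyclin E genes and RCHY1 and narrowed those for CDKN1A and CDKN1B. In RNA from whole cultures, a smaller number of cells in one phase of the cycle and less RNA per cell cannot be told apart.

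The genes around the members were followed in 8 lists, each gene by its brightest tested probe set. Apart from the members the lists held 115 measured genes, and none was called by limma, against 0.247% of all genes. The methods' t-test called none of them, and 0 of all tested probe sets. At an unadjusted p of 0.05, 14 were higher and 5 lower, and 11.4% of all genes passed that level in either direction. By direction the share is given here only for probe sets, of which 4.39% passed as higher, so the split of the list genes has no matching share. Their median log2 fold change was 0.03. Without vector replicate 3, 3 of the 115 were called, all higher, namely PMAIP1, MYC and AKT2, and 1.36% of all genes were.

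Among 19 measured regulators of p53, 10 lay above and 9 below 0, with a median log2 fold change of 0.03. ATR, the kinase that signals stalled replication forks to p53, gave 1605, 1521 and 1131 on the vector arrays and 2152 and 1925 on the PRL-1 arrays. The groups did not overlap, and the log2 fold change was 0.54 (limma adjusted p = 0.35). KAT5, an acetyltransferase for p53, gave -0.34 (adjusted p = 0.453), and TRIM28, a corepressor that works with MDM2, gave 0.19 (adjusted p = 0.625). MDM4, the partner of MDM2 that masks the activation domain of p53, gave -0.15 by its brightest set (adjusted p = 0.795). Its other tested sets lay on both sides of 0, at -0.22, -0.20, -0.10, 0.09 and 0.34, and groups overlapped in all of them.

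The 29 measured p53 target genes were spread around 0, with 14 above, 15 below and a median log2 fold change of -0.02. PMAIP1, which encodes the BH3-only protein NOXA, gave 9807, 9205 and 11645 on the vector arrays and 15041 and 14288 on the PRL-1 arrays. Its log2 fold change was 0.53, with an interval of 0.23 to 0.82 (limma adjusted p = 0.259), and 0.63 without vector replicate 3 (adjusted p = 0.0116). ZMAT3, a zinc finger protein that binds RNA, gave 875.6, 865.2 and 826.2 against 1221 and 1170, with tight groups well apart, and a log2 fold change of 0.48 (adjusted p = 0.268). BAX, the apoptotic pore protein, had a wide vector group of 161.6, 618.7 and 592.6 against 1078 and 877.5, and a log2 fold change of 1.32 (interval 0.17 to 2.47, adjusted p = 0.453), which was 0.68 without vector replicate 1. PLK2 had 159.5, 108.1 and 150.9 on the vector arrays and 70.0 and 59.1 on the PRL-1 arrays, near background, and its log2 fold change was -1.10 (adjusted p = 0.454). It passed the signal filter only through the vector arrays, where it was higher, and it is among the list genes counted as lower above.

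Of 7 measured CDK inhibitors 6 were above 0, with a median log2 fold change of 0.08. By brightest sets, the inhibitors beside CDKN1A and CDKN1B with the smallest p were CDKN2D and CDKN2A. CDKN2D, which blocks CDK4 and CDK6, gave 0.32 (limma adjusted p = 0.836) and CDKN2A gave 0.07 (adjusted p = 0.871). A dimmer CDKN2A set gave 3357, 3365 and 2738 on the vector arrays and 4009 and 3914 on the PRL-1 arrays. Its groups did not overlap, and its log2 fold change was 0.34 (limma adjusted p = 0.447). CDKN2D signals were near background, from 79.1 to 171.9, and its value was 0.02 without vector replicate 2. Of 15 measured G1 cyclins and CDKs 12 were above 0, and the median of 0.13 went to 0.01 without vector replicate 3. CCND1, the D-type cyclin outside the members, showed how 1 array set such values. It gave 2755, 2692 and 1284 on the vector arrays and 2363 and 3088 on the PRL-1 arrays, and its log2 fold change was 0.35 with vector replicate 3 and -0.01 without it. CDK4, CDK6 and CCNA2 gave 0.03, -0.02 and 0.02, and MNAT1, the assembly factor of the CDK-activating kinase, gave 0.43 (adjusted p = 0.414).

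In the RB and E2F family 11 of 15 genes were above 0, with a median log2 fold change of 0.11. TFDP1, the DNA-binding partner of E2F factors, gave 5308, 4726 and 4467 on the vector arrays and 7314 and 6668 on the PRL-1 arrays. The groups were well apart, with a log2 fold change of 0.53 and an interval of 0.27 to 0.80 (limma adjusted p = 0.207). Its relative TFDP2 gave 0.45 (adjusted p = 0.463), E2F8 gave 0.41 (adjusted p = 0.426), RB1 gave 0.28 (adjusted p = 0.53) and E2F1 gave 0.30 (adjusted p = 0.683). By the brightest sets, E2F1 alone of these 5 had overlapping groups, and other tested sets differed. The other E2F1 set gave 0.41 without overlap. Groups overlapped in other sets of RB1 (0.17), TFDP1 (0.37) and TFDP2 (0.63), but not in further sets of TFDP1 (0.39) and TFDP2 (0.52 and 0.75). Genes for the turnover of p27 and cyclin E had a median of -0.06, with 5 of 12 above 0. SKP2 and FBXW7, the F-box proteins for p27 and cyclin E, gave -0.08 and 0.00, and CUL3, the scaffold of a cyclin E ligase, gave 0.35 (adjusted p = 0.447). The next genes of that list by p all lay below 0 by their brightest sets. KPNA2, a nuclear import receptor, gave -0.20 without overlap of the groups. USP28, a deubiquitinase, gave -0.26 and CDC34, a ubiquitin-conjugating enzyme, -0.17, both with overlap. The other KPNA2 set, of similar brightness, gave 0.05 with overlap, and dimmer USP28 sets gave -0.35 and -0.48 without overlap.

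Among 14 measured genes upstream of p21 and p27 the median log2 fold change was -0.03, and 0.11 without vector replicate 3. AKT2, a kinase of the family that phosphorylates MDM2, p21 and p27, gave 1509, 1721 and 1997 on the vector arrays and 3209 and 2627 on the PRL-1 arrays. In this brightest set the groups were clearly separate, with a log2 fold change of 0.75 and an interval of 0.40 to 1.09 (limma adjusted p = 0.193). Without vector replicate 3 its limma adjusted p was 0.0179. Other AKT2 sets differed, with -0.01 and 0.07 where groups overlapped and 0.40, 0.52, 0.57 and 1.52 where they did not. MYC, a repressor of CDKN1A transcription, gave 4370, 5188 and 5548 against 6970 and 6952, a log2 fold change of 0.47 (adjusted p = 0.288, and 0.0437 without vector replicate 3). AKT1 gave 0.32 (adjusted p = 0.453), and SMAD4, a mediator of TGF-beta signals, gave -0.27 (adjusted p = 0.454). For proliferation genes the median was 0.10, with 10 of 16 above 0. MKI67 gave 0.33 (adjusted p = 0.384), AURKA 0.33 (adjusted p = 0.474), MYBL2 0.34 (adjusted p = 0.554) and CDK1, the mitotic kinase, -0.27 (adjusted p = 0.489). Other tested sets differed, with 0.24, -0.04 and 0.01 for MKI67 and 0.56 and 0.01 for AURKA. For CDK1 they gave -0.01, -0.12 and -0.05.

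**Figure D4:**
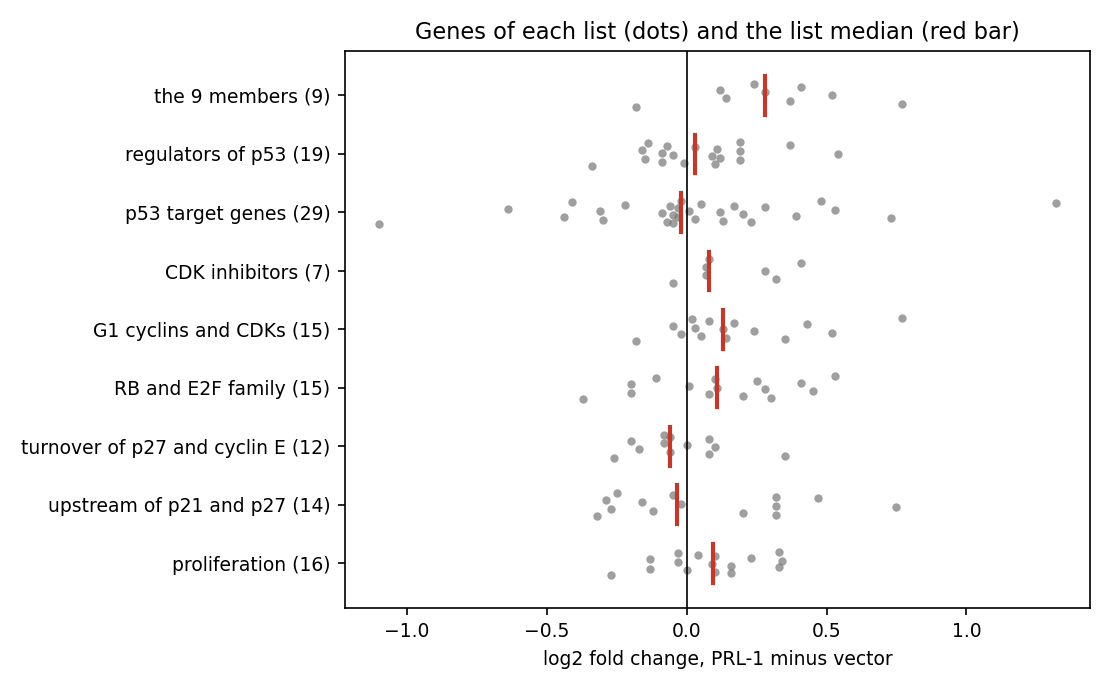
Log2 fold change (PRL-1 minus vector) of each measured gene by its brightest probe set as grey dots, with the list median as a red bar, for the 9 members and the 8 lists, some of which include members (number of measured genes in parentheses). The median of the members is at 0.28, and those of the lists are between -0.06 and 0.13.

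The labelled cell type was checked by marker lists. All 5 epithelial markers reached 100 on every array, with summed signals of 14427 to 17105 on the vector arrays and 19895 to 20765 on the PRL-1 arrays. Of these markers CDH1 had a log2 fold change of 1.24 (limma adjusted p = 0.0871). None of the 5 was called with all arrays, 3 passed an unadjusted p of 0.05, and 3 were called without vector replicate 3. Of the neuronal markers 4 of 6 reached 100 on all arrays (summed signals 40432 to 44929 and 43600 to 44130), the PRL-1 sums lying within the vector range. Fibroblast markers did so in 2 of 6 (1510 to 1653 and 1383 to 1669), endothelial markers in 1 of 5 (565.5 to 838.4 and 447.7 to 508.6) and blood cell markers in 2 of 4 (700.0 to 1088 and 676.2 to 716.0), while PTPRC, CDH5 and PDGFRB stayed at or under 80.9, 11.5 and 21.7. Those of these lists that reached 100 on all arrays were COL1A1, DCN, PECAM1, CD3E and HBB. Their lowest signals were 779, 256.9, 355.5, 168.7 and 394.7. The part of the epithelial difference in the members' differences was not tested.

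Likeness of pattern was measured as the root mean square difference of log2 signals, centred on their mean, over the 5 arrays, for the 3 members with the widest range. Nearest to CCNE2 were ZNF229, whose vector signals stayed under 100, and NAA50, both at 0.047. NAA50 gave 2070, 2268 and 1418 on the vector arrays and 3017 and 3186 on the PRL-1 arrays, with the same low vector replicate 3 as CCNE2. Nearest to CCNE1 were TFAP2A at 0.038 and ERO1A at 0.046. Nearest to RCHY1 were BZW1 at 0.014 and CD2BP2 at 0.017, and BZW1 gave 5391, 5220 and 3220 against 5825 and 5692. In that gene as in RCHY1, the range over the arrays came mainly from vector replicate 3.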

How the data were processed

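Total RNA of HEK293-vector (3 cultures) and HEK293-PRL-1 (2 cultures) was hybridized to HG-U133 Plus 2.0 arrays, 1 per culture. The deposited values are linear MAS5 intensity values, which the authors computed for each probe set with the Bioconductor affy library. MAS5 subtracts a mismatch estimate, which makes dim signals unstable. Presence calls were not used here. Precision is limited by how few arrays there are.

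Probe sets were named by the platform annotation, with symbols brought up to date by gene identifier (GRCh38.p14). A symbol was single for 41091, several for 1801 (not named) and none for 11721, and 62 control probe sets were left out. For the genome build of the array design, the sources used here give no name.

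Signals of at least 100 on at least 2 arrays were log2 transformed, and limma 3.58.1 (R 4.3.3) was run by lmFit and eBayes with trend, with group as the only term, two-sided, with Benjamini-Hochberg adjustment over all 33818 tested probe sets. The fit was tested on simulated data. A gene was represented by its brightest tested probe set, by mean log2 signal. Named were all members, PTP4A1, 9 fixed pathway genes, up to 4 genes per list with the smallest p, and the nearest patterns. BZW1, CD2BP2 and the other pattern genes follow from that rule. Members and lists were chosen with earlier results of these data known.

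Alternatives were another filter or none, a log offset of 32, quantile normalization, median centring, the replicate number as a block, eBayes without the trend, the methods' t-test, each array left out in turn, the mean of all probe sets of a gene, and member sets without _x_at and _s_at. Fits with a single PRL-1 array take its spread from the vector arrays.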

Additional observations from a re-analysis of the deposited data

How the results depend on the processing

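The number of member probe sets called was 0 with all arrays and stayed 0 under every alternative except the replicate block (2, CDKN1B at 0.54 with limma adjusted p = 0.0238 and CCNE2 at 0.53 with adjusted p = 0.0437) and the fit without vector replicate 3 (1, CDKN1B), so that leaving out each array gave 0 to 1. The 65 calls over all tested probe sets became 9 without the trend, 0 by the methods' t-test and 11 to 313 with an array left out, the lowest without PRL-1 replicate 1 and the highest without vector replicate 3. Genes called in the lists apart from the members numbered 0, and 0 to 3 with an array left out. The count of member sets at an unadjusted p of 0.05 was 4, and it was 2 without the trend, 1 without PRL-1 replicate 2 and 1 by the methods' t-test, where it was CCND3. The log2 fold changes of the brightest member sets kept their sign in all 117 values under alternatives, and 22 of 310 values over all tested member sets had the other sign.

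With the replicate number as a block, 448 probe sets and 4 list genes were called, and the median log2 fold change was 0.01 for G1 cyclins and CDKs and 0.11 for genes upstream of p21 and p27. The block leaves vector replicate 3 without a partner. Deviations of same-numbered arrays from their group means correlated at 0.06 and -0.06, so the numbers are not shown to pair the cultures.

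Using the mean of all probe sets of a gene, the median was 0.17 for the members, 0.03 for p53 target genes and 0.20 for CDK inhibitors. Quantile normalization and median centring each gave -0.02 for turnover of p27 and cyclin E. With each array left out in turn, the median ranged from 0.24 to 0.33 for the members, 0.00 to 0.08 for regulators of p53, 0.01 to 0.16 for G1 cyclins and CDKs, 0.08 to 0.16 for the RB and E2F family, -0.09 to -0.02 for turnover of p27 and cyclin E, -0.09 to 0.11 for genes upstream of p21 and p27 and 0.02 to 0.13 for proliferation. The causes were not tested. Dim signals and 2 PRL-1 arrays limit what these data can show.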
